A study of Mus musculus with 10 samples.

Results

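Transcript levels were compared between mouse oocytes of a spermidine group (4 libraries) and untreated aged oocytes (3 libraries), 7 of the 10 libraries of the series. The samples were chosen by their titles alone, and all 12315 genes with enough counts were tested, out of 18493 in the table. The labels call the spermidine group a rescue, and by the design text it is a rescue of aged oocytes, so it is read here as aged oocytes that received spermidine. The other 3 libraries are young oocytes. Every group is labelled as germ cells from the ovary. The labels used here give no strain, age, dose, route or length of treatment, do not say how many oocytes or animals stand behind a library, and give no vehicle for the aged group. P-values therefore rest on the spread among these 10 libraries, part of which may be technical. By its title the series asks how spermidine acts on oocytes during female reproductive ageing, with mitophagy as its theme.

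Spermidine belongs to the polyamines, cationic metabolites that bind RNA and it supplies the aminobutyl group for hypusine, a modified residue of the translation factor eIF5A. It is known for promoting autophagy, the delivery of cell contents to lysosomes, of which mitophagy is the branch that removes mitochondria. A full-grown oocyte makes little new RNA and lives on stored maternal mRNA, whose poly(A) tails are shortened and lengthened as it matures. SMART-seq2, the method used, primes reverse transcription on the poly(A) tail, so the levels below are those of RNA captured by its tail, and tail length was not measured. Levels are given as CPM, counts relative to the library total after TMM scaling. In bulk RNA, fewer cells of a type and less RNA per cell cannot be told apart.

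The 7 libraries held 25992741 to 27479365 counts each and detected 15349 to 15689 genes, with 18.5% to 22.3% of counts in the 10 most abundant genes. Aged replicate 1 and spermidine replicates 1 and 4 stood apart from the others of their groups. Across genes, the deviation of a library from the mean correlated with transcript length at 0.327 (aged replicate 1) and 0.130 (spermidine replicate 1), and at -0.107 to 0.045 in the other 5. Genes are not independent replicates, so this is a description. The correlation with GC content was -0.154 in aged replicate 1, 0.260 and 0.379 in aged replicates 2 and 3, and -0.198 to 0.197 in the spermidine libraries. The first principal component of all 10 libraries held 35.0% of the variance, and on the second (18.5%) aged replicate 1 (28.4) lay beside spermidine replicates 1 and 2 (32.8 and 24.2), away from aged replicates 2 and 3 (-33.1 and -27.2). Spermidine replicate 4 (-20.8) lay on the side of aged replicates 2 and 3, and spermidine replicate 3 (6.60) between. Across genes, the levels of spermidine replicate 4 correlated with those of aged replicates 2 and 3 at 0.979 and 0.978, and with those of spermidine replicates 1, 2 and 3 at 0.971, 0.977 and 0.980. The highest TMM scaling factor was that of spermidine replicate 1 (1.23, lowest 0.950 among the 7).

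Oocyte identity was plain in both groups. Defining oocyte markers summed to 31494 to 38914 CPM in the aged libraries and 21474 to 39409 CPM in the spermidine libraries. The granulosa and cumulus markers, genes of the somatic cells around the oocyte, summed to at most 23.6 CPM in aged and at most 27.0 CPM in spermidine libraries. Theca and stroma markers stood at 1.65 to 2.47 and 1.73 to 2.54 CPM, epithelial markers at 1.57 to 5.23 and 2.71 to 4.18 CPM, and endothelial markers at 15.6 to 16.6 and 11.1 to 12.6 CPM. Immune markers reached 3.5 CPM in aged replicate 1 and at most 1.34 CPM in the other 6. Haemoglobin and other red cell markers reached 9.71 CPM in aged replicate 1 and at most 0.145 CPM in the other 6, with Hbb-bs at 0 in those 6. None of the markers of somatic or blood cells that were tested passed (5 granulosa, 3 theca and stroma, 4 red cell, 3 immune, 3 endothelial and 2 epithelial). The endothelial sums of the groups did not overlap, and their part in the results below was not tested.

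With spermidine 298 genes rose (2.42% of those tested) and 300 fell (2.44%), together 598 (4.86%), by edgeR's quasi-likelihood test at an adjusted p under 0.05. The largest rises among well expressed genes (20 CPM or more in the higher group) were those of the chemokine Ccl2, the exchange factor Prex2, the annexin Anxa5, the mucin-type glycosyltransferase Galnt6 and the lipid enzyme Gpat3. The largest falls among well expressed genes were those of the class Ib histocompatibility gene H2-T22, the leucine zipper gene Lzts1, the branched-chain keto acid dehydrogenase subunit Dbt, the zinc finger gene Zfp961 and Rilpl1, a partner of Rab proteins. At least 20 CPM in the higher group was reached by 116 of the genes that rose and 152 of those that fell. The change was at least 2-fold in 111 genes upward and 114 downward, and the median change was 0.87 upward and -0.88 downward on the log2 scale. Without a correction for many tests 2982 genes had a p under 0.05, and the median log2 fold change of all tested genes was -0.03.

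**Figure D1:**
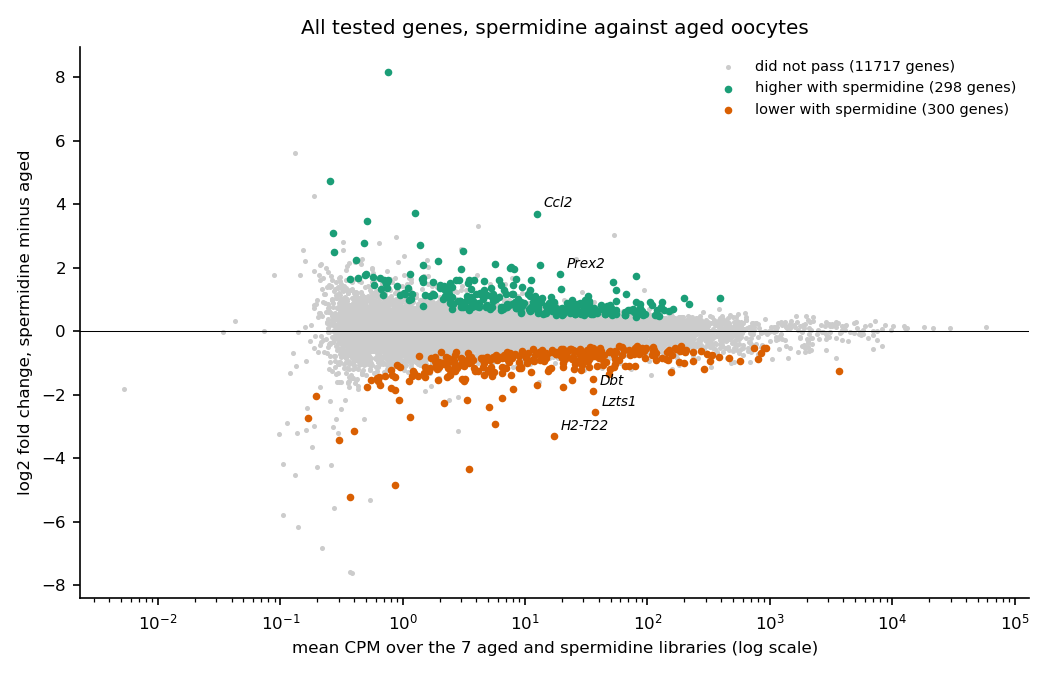
Log2 fold change of each tested gene, spermidine minus aged, against its mean CPM over the 7 libraries (log scale), with the 298 genes that rose and the 300 that fell coloured. Changed genes lie on both sides of 0 in like number, and the 5 genes of largest change named by rule are labelled.

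The groups did not overlap in 591 of the 598 changed genes. Groups that do not overlap were found in 2445 of all tested genes (19.9%), of which 1400 were higher and 1045 lower with spermidine. The genes that rose had shorter transcripts (median 1400 bases over 290 genes of known length) and those that fell longer ones (median 2709 bases over 293) than all tested genes (median 2124 bases). Median GC content was 48.0% in the genes that rose, 51.6% in those that fell and 49.9% in all. The libraries' trends with length, given above, overlapped between the groups through spermidine replicate 1 alone (0.130). Spermidine replicates 2, 3 and 4 (-0.062, -0.107 and -0.046) lay below all aged libraries (0.327, 0.045 and 0.028). The GC trends overlapped through aged replicate 1 alone (-0.154). The part of length and GC in these medians was not tested. With both taken out as offsets 326 genes rose and 421 fell. Of the 598 genes 583 were in that fit, and 457 stayed called.

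Single libraries weighed heavily on the number of calls. The count was 42 higher and 57 lower without aged replicate 2, 62 and 105 without aged replicate 3, 53 and 58 without spermidine replicate 2, and 91 and 76 without spermidine replicate 3. Without spermidine replicate 4 it was 537 and 590, and without young replicate 1, 2 or 3 it was 137 and 136, 197 and 207, or 139 and 142. A fit of the 7 libraries alone called 65 higher and 59 lower, DESeq2 653 and 713, and scaling by total counts 153 and 106. Direction did not turn for any of the 598 genes under any alternative that tested it. The groups did not overlap in 591 of them, so refits of the same counts could hardly turn a direction. The call was kept whichever of the 10 libraries was left out by 71 of the 598 genes (30 higher, 41 lower), and 37 of them kept it under every alternative but a fold threshold. In that 37 a gene absent from a fit counts as not kept. The filter of 10 CPM in 3 libraries left 349 of the 598 genes, and the fits with length and GC offsets 583. A gene outside the 37 therefore need not have lost its call in a test. Below, a gene that held in every leave-one-out fit is one of these 71. For the rest the libraries whose removal lost the call are named. Of the 598 calls only 95 were kept without aged replicate 2, and 268 without young replicate 1, which is outside the comparison. A lost call therefore does not show that the library carried that gene's difference.

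**Figure D2:**
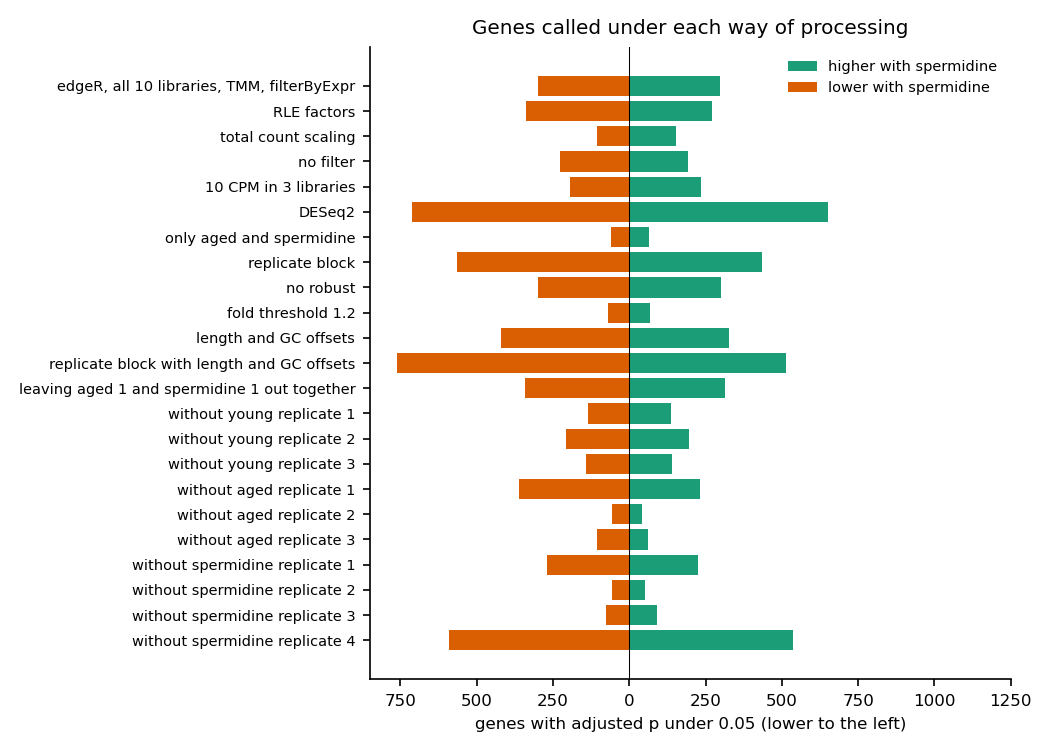
Number of genes called higher (right) and lower (left) with spermidine under each way of processing. The count was smallest without aged replicate 2 (42 higher, 57 lower) and largest with a replicate block and length and GC offsets (513 higher, 761 lower) or DESeq2 (653 higher, 713 lower).

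Anxa5 (Gene ID 11747), which encodes a calcium-dependent phosphatidylserine-binding protein, stood at 37.2, 34.8 and 32.5 CPM in the aged libraries. It stood at 135, 134, 112 and 78.3 CPM with spermidine, a log2 fold change of 1.72 (SE 0.18, edgeR adjusted p = 0.0013). Spermidine replicate 4 was the lowest of its group and still above every aged library, and the young libraries lay at 116 to 131 CPM. Plpp1 (Gene ID 19012), which encodes a lipid phosphate phosphatase, stood at 39.0, 38.2 and 39.9 CPM in aged and 88.8, 95.4, 88.4 and 74.4 CPM in spermidine libraries (1.15, SE 0.13, edgeR adjusted p = 0.00183). Vamp8 (Gene ID 22320), a SNARE that takes part in the fusion of autophagosomes with lysosomes, stood at 33.1, 22.3 and 36.0 CPM and then at 77.2, 74.1, 71.6 and 75.2 CPM (1.29, SE 0.17, edgeR adjusted p = 0.0029). These 3 genes were higher in 4 of 4 spermidine libraries than in any aged library and held in every leave-one-out fit. Their aged minus young log2 fold changes were -1.80, -1.73 and -1.02.

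Tceal8 (Gene ID 66684), of a family related to a transcription elongation factor, stood at 281, 244 and 210 CPM in the aged and 513, 504, 548 and 460 CPM in the spermidine libraries (1.05, SE 0.13, edgeR adjusted p = 0.00285). Its young libraries lay at 53.1 to 62.4 CPM, so both the aged and the spermidine values were above the young ones. The claudin-like gene Cldn34b2 (Gene ID 73347) stood at 20.8, 19.5 and 19.5 CPM and then at 35.5, 53.7, 43.4 and 37.5 CPM (1.09, SE 0.18, edgeR adjusted p = 0.0102), with young libraries at 9.49 to 13.4 CPM. The groups did not overlap in either gene, and both held in every leave-one-out fit. Both comparisons use the aged libraries, so the aged minus young values here and below are set beside the others and not counted as a second measurement.

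The largest fitted rise among genes of at least 20 CPM in the higher group was uneven. Ccl2 (Gene ID 20296), a chemokine that attracts monocytes, stood at 1.0, 1.55 and 2.28 CPM in the aged libraries and at 29.2, 31.5, 19.2 and 3.41 CPM with spermidine (3.70, SE 0.68, edgeR adjusted p = 0.0161). Spermidine replicate 4 lay close to the aged libraries, and the call was lost without aged replicate 1, 2 or 3 (adjusted p = 0.0937, 0.095 and 0.0554). Prex2 (Gene ID 109294), which encodes an activator of Rac, stood at 6.44, 7.47 and 10.1 CPM and then at 20.7, 21.0, 23.2 and 45.9 CPM (1.79, SE 0.33), and lost its call without aged replicate 2 (adjusted p = 0.0699). Galnt6 (Gene ID 207839) stood at 16.2, 26.9 and 32.7 CPM and then at 59.7, 58.0, 122 and 52.3 CPM (1.53, SE 0.34). Its call was lost without aged replicate 1, 2 or 3 or spermidine replicate 2 or 3 (adjusted p from 0.0528 to 0.095). In Prex2 the highest spermidine library was replicate 4 and in Galnt6 it was replicate 3.

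The other rises named by rule were smaller. Cmtm8, a membrane protein gene, changed by 1.06 (SE 0.18) and lost its call without aged replicate 2 (adjusted p = 0.0612). Cdo1, the cysteine dioxygenase that opens cysteine breakdown, changed by 1.04 (SE 0.23), from 103 to 162 CPM in aged to 180 to 334 CPM in spermidine libraries. Ms4a6d (0.97, SE 0.23), the cytokine Il17f (0.94, SE 0.23), Pdzph1 (0.93, SE 0.24) and Dcdc2c (0.92, SE 0.21), a doublecortin domain gene, did not overlap between the groups either. The calls of Cdo1, Ms4a6d, Il17f, Pdzph1 and Dcdc2c were each lost without aged replicate 3, without spermidine replicate 2 and without spermidine replicate 3, with a highest adjusted p of 0.095 to 0.14. All but Cdo1 also lost it without aged replicate 2 and without young replicate 3. Further losses came without young replicate 1 (Cdo1, Ms4a6d, Il17f, Pdzph1), young replicate 2 and spermidine replicate 1 (Ms4a6d, Il17f, Pdzph1) and aged replicate 1 (Cdo1, Il17f, Pdzph1).

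Among genes of at least 20 CPM in the higher group that fell, H2-T22 (Gene ID 15039) had the largest fitted change. It stood at 28.8, 45.5 and 32.5 CPM in the aged libraries and at 1.83, 2.90, 2.35 and 7.29 CPM with spermidine (-3.31, SE 0.39, edgeR adjusted p = 0.00204). Every spermidine library lay below every aged and every young library (17.5 to 24.9 CPM), with replicate 4 the highest of the 4. H2-T22 has near-identical neighbours in the histocompatibility complex, and the counting can split reads between such copies, so the value is uncertain for the single gene. Its close relative H2-T10 stood at 24, 30.2 and 32.2 CPM and then at 13.4, 16.3, 18.4 and 14.1 CPM (-0.89, SE 0.21, edgeR adjusted p = 0.0395). These 2 fell of 18 genes of class I histocompatibility and antigen presentation, 11.1% against 4.86% of all genes. None rose, and the median was -0.03. H2-T22 held in every leave-one-out fit, and H2-T10 lost its call without young replicate 1, aged replicate 2 or 3, or spermidine replicate 1, 2 or 3 (adjusted p up to 0.12).

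Lzts1 (Gene ID 211134), whose product is a tumour suppressor found at the centrosome, stood at 45.6, 88.0 and 80.6 CPM in the aged and 11.6, 13.0, 7.90 and 16.4 CPM in the spermidine libraries (-2.55, SE 0.27, edgeR adjusted p = 0.0013). Dbt (Gene ID 13171), needed to break down branched-chain amino acids in mitochondria, stood at 53.7, 66.3 and 64.8 CPM and then at 23.4, 17.0, 19.8 and 6.37 CPM (-1.88, SE 0.32). Young libraries held Dbt at only 1.98 to 2.62 CPM, so the spermidine libraries lay between the young and the aged ones. For Lzts1 the young libraries, at 91.6 to 143 CPM, lay above both other groups. Zfp961 (Gene ID 234413) fell from 33.3, 35.4 and 33.1 CPM to 8.72, 9.28, 8.06 and 14.3 CPM (-1.75, SE 0.20), and Rilpl1 (Gene ID 75695) from 17.9, 26.6 and 18 CPM to 5.50, 6.74, 7.82 and 5.68 CPM (-1.70, SE 0.19). These 4 held in every leave-one-out fit.

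Several further regulators fell with groups well apart and held in every leave-one-out fit. Ern1 (Gene ID 78943), which encodes IRE1 alpha, a sensor of unfolded protein in the endoplasmic reticulum, stood at 76.7, 56.4 and 36.5 CPM in aged and 21.1, 15.7, 21.0 and 22 CPM in spermidine libraries (-1.5, SE 0.22). Sebox (Gene ID 18292), a homeobox gene of oocytes that acts as a maternal factor in the early embryo, stood at 81.0, 74.6 and 66.2 CPM and then at 22.9, 23.3, 33.5 and 35.1 CPM (-1.37, SE 0.17). Mark2 (Gene ID 13728), a kinase of microtubule-associated proteins, stood at 43.1, 42.2 and 41.9 CPM and then at 19.9, 16.7, 14.9 and 20.7 CPM (-1.23, SE 0.15). Ptbp1 (Gene ID 19205), a regulator of splicing, fell by 1.14 on the log2 scale (SE 0.17), Zfp979 (Gene ID 112422) by 1.55 (SE 0.19) and Zfp750 (Gene ID 319530) by 1.19 (SE 0.18). Young and spermidine values overlapped in Ern1 and Sebox, the young libraries lying at 20.9 to 25.8 and 33.9 to 35.3 CPM.

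The calls of the remaining large falls were not kept in every leave-one-out fit. Carmil1, a regulator of actin capping, changed by -1.19 (SE 0.22) and lost its call without aged replicate 2 (adjusted p = 0.0558) or spermidine replicate 2 (adjusted p = 0.0552). Rela, the p65 subunit of NF-kappa B, changed by -1.18 (SE 0.23), from 19.4 to 26.2 CPM in aged to 7.83 to 15.6 CPM in spermidine libraries. It lost its call without aged replicate 2 or 3 or spermidine replicate 2 or 3 (adjusted p from 0.0611 to 0.0754). Mtr, methionine synthase, changed by -1.16 (SE 0.26), and lost its call without young replicate 3, aged replicate 1 or 2, or spermidine replicate 2 or 3 (adjusted p from 0.0508 to 0.104). Zbed3 is given below with the abundant genes.

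**Figure D3:**
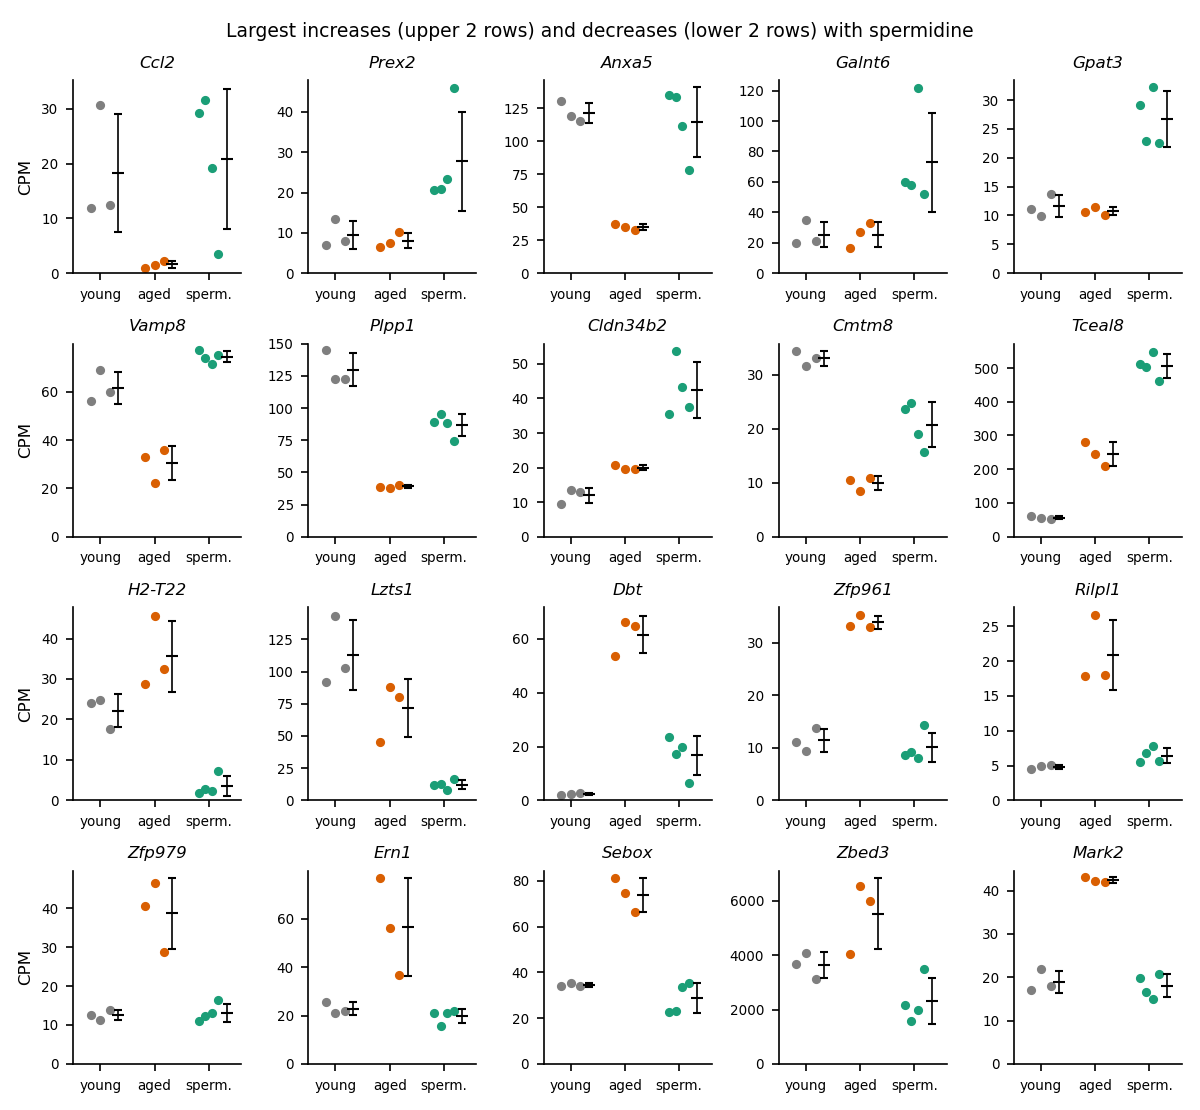
CPM in each library of the 10 largest rises (upper rows) and 10 largest falls (lower rows) named by rule, with young libraries for reference. Points are libraries, and bars are the mean and SD of a group (n = 3, 3 and 4). The rule that named these genes required groups that do not overlap, and Ccl2, Prex2 and Galnt6 have 1 spermidine library far from the other 3.

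The promoters of 3 genes with large changes that held in every leave-one-out fit are shown, 1 for each motif outcome seen among them. Each window runs from 250 bases before to 50 after a RefSeq start (GRCm38.p6), is on the minus strand and is written 5′ to 3′ on that strand. Capitals mark a match to a motif searched on both strands, and a window with none is all lower case. Anxa5 lies at chr3:36475838-36476137, H2-T22 at chr17:36042693-36042992 and Tceal8 at chrX:136172202-136172501.
Anxa5: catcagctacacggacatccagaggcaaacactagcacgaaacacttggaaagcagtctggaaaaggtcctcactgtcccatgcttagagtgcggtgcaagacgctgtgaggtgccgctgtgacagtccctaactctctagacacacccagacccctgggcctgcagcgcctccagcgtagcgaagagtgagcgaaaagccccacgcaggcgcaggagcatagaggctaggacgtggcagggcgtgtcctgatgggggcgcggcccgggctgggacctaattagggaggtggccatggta
H2-T22: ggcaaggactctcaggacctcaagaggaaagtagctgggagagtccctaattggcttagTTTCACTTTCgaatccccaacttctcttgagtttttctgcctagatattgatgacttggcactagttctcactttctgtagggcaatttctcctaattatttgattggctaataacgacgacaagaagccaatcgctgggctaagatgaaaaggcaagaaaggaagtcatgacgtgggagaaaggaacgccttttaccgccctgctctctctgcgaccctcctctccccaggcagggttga
Tceal8: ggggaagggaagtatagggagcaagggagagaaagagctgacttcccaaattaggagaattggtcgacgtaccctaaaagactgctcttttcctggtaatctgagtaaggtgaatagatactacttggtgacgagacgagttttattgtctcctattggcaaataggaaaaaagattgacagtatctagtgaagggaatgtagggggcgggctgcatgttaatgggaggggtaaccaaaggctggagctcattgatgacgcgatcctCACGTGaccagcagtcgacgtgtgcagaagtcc
The motifs were CACGTG, bound by factors such as TFEB and USF, TGACGTCA, bound by CREB, TGAGTCA, bound by AP-1, and the interferon-stimulated response element, searched as a direct repeat of GAAA with any 2 bases between the copies. CACGTG was in the Tceal8 window and the interferon element, on the opposite strand, in that of H2-T22. Of the 12614 windows of tested genes 9.55% held CACGTG, 3.00% TGACGTCA, 3.60% TGAGTCA and 2.85% the interferon element. For the 282 windows of genes that rose the shares were 8.16%, 3.55%, 3.19% and 3.19%. For the 332 windows of genes that fell they were 12%, 1.81%, 3.92% and 4.82%. No test was made of these shares, and a match of letters is not a binding site.

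Some of the genes that changed with spermidine had an aged minus young log2 fold change under 0.25 in size (unadjusted p over 0.2). Of 22 such genes at 20 CPM or more, the 10 of smallest p are given, and the p does not show that their young and aged levels were equal. Gpat3 (Gene ID 231510), the glycerol-3-phosphate acyltransferase of the endoplasmic reticulum that opens triglyceride synthesis, stood at 11.2, 9.91 and 13.7 CPM in young and 10.6, 11.4 and 10.1 CPM in aged libraries. With spermidine it stood at 29.1, 22.8, 32.4 and 22.5 CPM (1.32, SE 0.18, edgeR adjusted p = 0.00395, aged minus young -0.12). All 4 spermidine libraries lay above all 6 others, and the call held in every leave-one-out fit. Prex2 and Galnt6, given above, had aged minus young values of -0.25 and 0.00.

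Ran (Gene ID 19384), the small GTPase that drives nuclear transport and takes part in spindle assembly, stood at 80.4, 106 and 79.2 CPM in aged and 126, 190, 150 and 196 CPM in spermidine libraries (0.90, SE 0.18), against 90.8 to 112 CPM in young ones. Mrpl39 (Gene ID 27393), a protein of the mitochondrial ribosome, stood at 46.1, 64.3 and 57.9 CPM and then at 97.8, 96.2, 82.3 and 85.0 CPM (0.69, SE 0.14). Both lost their calls without aged replicate 3 or spermidine replicate 2 (adjusted p from 0.067 to 0.08). Epha4 (Gene ID 13838), an ephrin receptor, stood at 74.6, 84.4 and 82.7 CPM in aged and 41.9, 50.5, 52.9 and 45.4 CPM in spermidine libraries (-0.76, SE 0.13), with young libraries at 75.9 to 89.4 CPM. Its call was lost without aged replicate 2 (adjusted p = 0.0544).

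Ociad1 (Gene ID 68095), a protein of endosomes and mitochondria, changed by -0.78 (SE 0.15), and lost its call without aged replicate 2 or 3 or spermidine replicate 2 (adjusted p from 0.051 to 0.0792). Csnk1a1, casein kinase 1 alpha, changed by -0.56 (SE 0.12), and Dhx57, an RNA helicase, by -0.63 (SE 0.14). Eif4a1, the helicase of the cap-binding complex, stood at 300, 283 and 256 CPM in aged and 100, 112, 151 and 196 CPM in spermidine libraries (-1.0, SE 0.22), and at 191 to 303 CPM in young ones. These 3 lost their calls without aged replicate 2 or 3 or spermidine replicate 2, Csnk1a1 and Eif4a1 also without spermidine replicate 3, and Dhx57 and Eif4a1 also without young replicate 1 (highest adjusted p 0.087, 0.095 and 0.11).

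**Figure D4:**
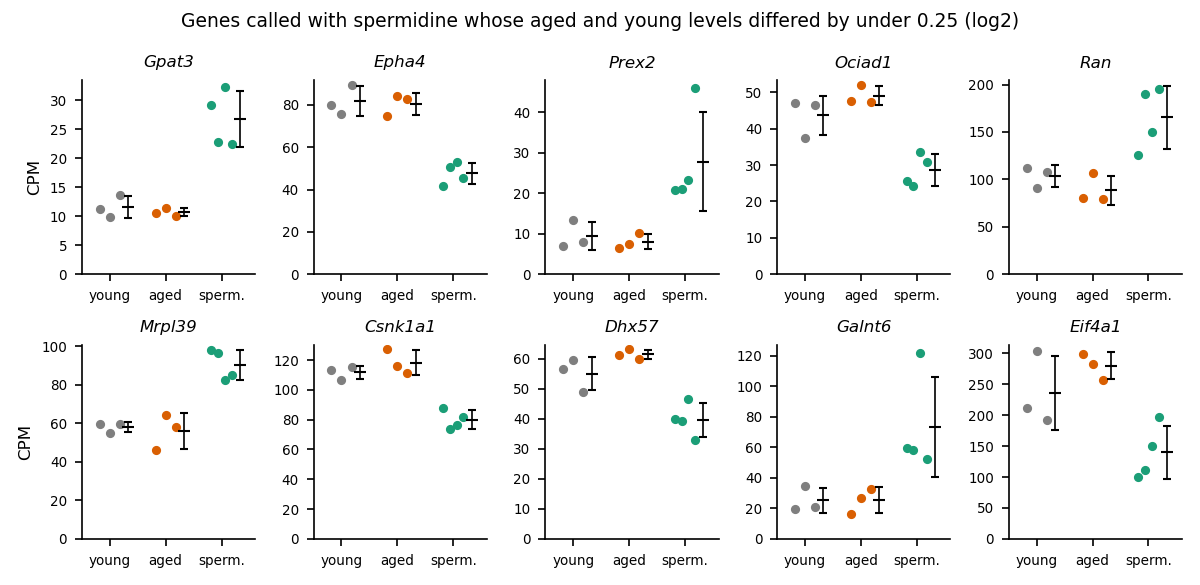
CPM in each library of the 10 genes that changed with spermidine and had an aged minus young log2 fold change under 0.25 in size. Points are libraries, and bars are the mean and SD (n = 3 young, 3 aged and 4 spermidine). The spermidine points lie to 1 side of the aged ones in each panel, and the young and aged points overlap in all but Ociad1 and Dhx57.

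The 8 most abundant of the changed genes all fell. Zbed3 (Gene ID 72114), a maternal gene of the subcortical complex that the oocyte passes to the embryo, stood at 4058, 6547 and 5994 CPM in aged and 2168, 1598, 1977 and 3511 CPM in spermidine libraries (-1.26, SE 0.25, edgeR adjusted p = 0.0191). Dazl, an RNA-binding protein that regulates translation in germ cells, stood at 1186, 1072 and 980 CPM and then at 638, 608, 652 and 761 CPM (-0.70, SE 0.15). Zfp57, which protects imprinted marks, stood at 789, 1354 and 1142 CPM and then at 457, 484, 664 and 764 CPM (-0.89, SE 0.21), with its highest spermidine library only just below its lowest aged one. Txnip, the thioredoxin-interacting protein, stood at 717, 885 and 748 CPM and then at 357, 304, 409 and 557 CPM (-0.94, SE 0.19).

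The ubiquitin ligase scaffold Cul1 changed by -0.53 (SE 0.13), the Rab7 regulator Tbc1d15 by -0.54 (SE 0.13) and the maintenance DNA methyltransferase Dnmt1 by -0.54 (SE 0.14). Cfl1, the actin-severing protein cofilin, changed by -0.85 (SE 0.20) although spermidine replicate 3 (464 CPM) was above aged replicate 1 (454 CPM). The calls of Zbed3, Dazl, Zfp57, Txnip, Cul1, Tbc1d15, Dnmt1 and Cfl1 were each lost without aged replicate 2, without aged replicate 3 and without spermidine replicate 2. All but Cfl1 also lost them without spermidine replicate 3. Zfp57, Cul1, Tbc1d15, Dnmt1 and Cfl1 lost them without young replicate 1 or 3 as well, Zfp57, Cul1, Tbc1d15 and Cfl1 without spermidine replicate 1, and Dazl, Cul1, Tbc1d15 and Dnmt1 without aged replicate 1. Zfp57, Tbc1d15 and Dnmt1 lost them without young replicate 2 and Dnmt1 without spermidine replicate 4, and the highest adjusted p of the 8 genes ran from 0.081 to 0.15.

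Of 43 oocyte-specific and maternal-effect genes 3 fell and none rose, 6.98% against 4.86% of all genes, and the median log2 fold change was -0.31. Fits with 1 library left out gave medians from -0.36 to -0.17 with 0 to 8 genes lower. The 7 libraries alone gave 0 lower, total count scaling 2 and the replicate block 13. The block with length and GC offsets gave 16, and DESeq2 gave 3 lower and 1 higher. Leaving out aged replicate 1 and spermidine replicate 1 together gave a median of -0.10. Besides Dazl the genes that fell were Ddx4 (-1.13, SE 0.23), the VASA helicase of germ cells, and Gpr3 (-0.96, SE 0.22). Gpr3 is the receptor that holds the oocyte in meiotic arrest. Ddx4 stood at 74.5, 100 and 58.2 CPM in aged and 26.6, 32.3, 36.1 and 46.7 CPM in spermidine libraries, and lost its call without aged replicate 2 or spermidine replicate 2 or 3 (adjusted p from 0.0591 to 0.094). Gpr3 stood at 10.1, 12.5 and 14.2 CPM and then at 5.23, 5.22, 5.71 and 9.05 CPM, and lost its call without young replicate 1 or 3, aged replicate 2 or 3, or spermidine replicate 1, 2 or 3 (highest adjusted p 0.1).

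The growth factor Gdf9 stood at 7114, 11814 and 10249 CPM in aged and 5745, 8697, 11832 and 13192 CPM in spermidine libraries (0.02, SE 0.26, edgeR adjusted p = 0.971). The groups overlapped widely, and so did those of its partner Bmp15 (-0.41, SE 0.25, edgeR adjusted p = 0.344). The zona pellucida genes Zp1, Zp2 and Zp3 had values of -0.65 (SE 0.31), -0.31 (SE 0.26) and -0.09 (SE 0.17), and Nlrp5 and Ooep of the subcortical complex -0.42 (SE 0.27) and -0.23 (SE 0.15). Mos, the kinase of meiotic arrest, had -0.50 (SE 0.21), the receptor Kit -0.46 (SE 0.30) and Oosp1 -0.25 (SE 0.16). Figla, the transcription factor that switches on the zona genes, lay at 15.7, 18.7 and 15.9 CPM in aged and 23, 27.1, 24.7 and 22.1 CPM in spermidine libraries, and just missed the threshold (0.53, SE 0.14, edgeR adjusted p = 0.0556). Clec16a, the most abundant gene of these libraries, lay at 48695 to 59104 CPM in aged and 40986 to 72715 CPM in spermidine libraries (0.13, SE 0.18). That level is uncertain for the single gene, since whether all reads counted under this symbol come from it was not tested. None of the oocyte genes in this paragraph passed.

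Genes that store, translate and destroy maternal mRNA had fitted values mostly below 0. Of 49 such genes 4 fell and none rose, 8.16% against 4.86% of all genes, the fitted value was below 0 in 38 and the median was -0.33. With 1 library left out medians ran from -0.41 to -0.10, the latter without aged replicate 1, and 0 to 6 genes were lower. Transcripts of this list were long (median 2780 bases, against 2124 over all tested genes). With length and GC offsets the median log2 fold change was -0.23. Cpeb1, which binds the polyadenylation element of dormant mRNA, stood at 445, 594 and 507 CPM in aged and 259, 220, 277 and 402 CPM in spermidine libraries (-0.83, SE 0.19). Eif4enif1, which holds eIF4E away from translation, stood at 349, 292 and 254 CPM and then at 218, 165, 162 and 213 CPM (-0.65, SE 0.15). Cnot3 of the deadenylase complex changed by -0.72 (SE 0.18), and Dazl was the fourth. These 4 calls were lost without aged replicate 2 or 3 or spermidine replicate 2 or 3 (highest adjusted p 0.097 to 0.12). Those of Cpeb1, Eif4enif1 and Cnot3 were lost without young replicate 1 or 3 too, that of Cnot3 without young replicate 2 or spermidine replicate 4, that of Cpeb1 without spermidine replicate 1, and those of Dazl, Eif4enif1 and Cnot3 without aged replicate 1.

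Among 68 translation factors 5 fell and none rose, 7.35% against 4.86% of all genes (median -0.07). Eif1, which helps the ribosome find the start codon, stood at 131, 154 and 146 CPM in aged and 81.5, 76.0, 85.7 and 94.3 CPM in spermidine libraries (-0.77, SE 0.12, edgeR adjusted p = 0.00923), and held in every leave-one-out fit. Eif4a1 and Eif4enif1 are given above. Eif4a3l1 (-2.05, SE 0.47), at under 0.5 CPM, is a near-identical copy of Eif4a3, and its reads may be shared. The fifth was Eif4g3, named after its value was seen. Rps18 alone rose among 82 cytosolic ribosomal protein genes (0.61, SE 0.14), with a median of 0.23 that was 0.12 after length and GC offsets. Iars, the isoleucine tRNA synthetase, was the 1 of 33 tRNA synthetases that changed (-0.68, SE 0.14). Eif4a3l1, Rps18 and Iars lost their calls without aged replicate 2 and without spermidine replicates 2 or 3, Eif4a3l1 and Rps18 also without young replicate 3, aged replicate 3 or spermidine replicate 1, and Rps18 without young replicate 1 or aged replicate 1 (highest adjusted p 0.092 to 0.12).

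None of the 18 tested genes of polyamine metabolism and transport passed the edgeR test, 0 passed with DESeq2, and the median was -0.04. Odc1, ornithine decarboxylase and the entry enzyme of polyamine synthesis, stood at 41.7, 16.4 and 28.7 CPM in aged and 52.9, 45.4, 32.2 and 33.2 CPM in spermidine libraries (0.50, SE 0.29). Its antizyme Oaz1, whose translation is raised by polyamines, stood at 299, 596 and 567 CPM and then at 496, 499, 507 and 601 CPM (0.11, SE 0.20). Sat1, the acetyltransferase that marks spermidine for export or oxidation, had 0.22 (SE 0.14), spermine synthase Sms 0.31 (SE 0.13), spermidine synthase Srm -0.07 (SE 0.24) and spermine oxidase Smox -0.04 (SE 0.17). Groups overlapped in all 18. The 4 genes of eIF5A and its hypusination, Eif5a (-0.35, SE 0.22), Eif5a2 (-0.01, SE 0.22), Dhps (-0.17, SE 0.24) and Dohh (-0.51, SE 0.45), did not pass either.

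Mitophagy is the theme of the series. Of its 31 tested genes 2 rose and 1 fell, 9.68% against 4.86% of all genes, and the other 28 did not pass. The median was -0.25, with medians from -0.28 to -0.10 over all alternatives. Nipsnap1, a matrix protein that marks damaged mitochondria, stood at 30.0, 41.2 and 39.7 CPM in aged and 47.1, 52.1, 62.2 and 63.5 CPM in spermidine libraries (0.60, SE 0.15). Atpif1, the inhibitor of the mitochondrial ATP synthase, stood at 61.0, 46.0 and 53.5 CPM and then at 92.1, 106, 80.3 and 63.4 CPM (0.68, SE 0.18). Ambra1, which recruits the autophagy machinery through Beclin 1, stood at 7.77, 8.26 and 10.2 CPM and then at 5.65, 4.17, 4.78 and 5.94 CPM (-0.77, SE 0.19). The groups did not overlap in these 3 genes. All 3 calls were lost without young replicate 1 or 3, aged replicate 2 or 3, or spermidine replicate 2 or 3, those of Nipsnap1 and Atpif1 also without young replicate 2, that of Nipsnap1 without aged replicate 1 or spermidine replicate 4, and that of Atpif1 without spermidine replicate 1 (highest adjusted p 0.11 to 0.17).

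Of 37 genes of autophagosome formation Vamp8 rose and Atg9a and Atg14 fell, 8.11% against 4.86% of all genes (median -0.15). Atg9a, the membrane protein that seeds autophagosomes, stood at 4.84, 3.41 and 4.22 CPM in aged and 2.92, 2.14, 1.78 and 2.15 CPM in spermidine libraries (-0.88, SE 0.21). Atg14, of the class III phosphoinositide 3-kinase complex, changed by -0.52 (SE 0.13). Of 38 lysosomal genes 3 fell and none rose, 7.89% against 4.86% of all genes (median -0.10). They were the saposin precursor Psap (-1.08, SE 0.24), the sulfatase Arsb (-1.12, SE 0.27) and Tfe3 (-0.62, SE 0.15), a transcription factor of lysosomal genes. In the vacuolar ATPase, the pump that acidifies lysosomes, Atp6v1f rose (0.52, SE 0.14) and Atp6v0c fell (-0.94, SE 0.24) of 22 genes. That is 9.09% against 4.86% of all genes. Atp6v0c overlapped, since spermidine replicate 4 (357 CPM) was above aged replicate 1 (317 CPM). Apart from Vamp8 each of these 7 calls was lost without aged replicate 2 and without spermidine replicates 2 or 3, and all but Psap without young replicate 1, 2 or 3 or aged replicate 3. Further losses were those of Atg9a, Atg14, Atp6v1f and Psap without aged replicate 1, and of Atg14, Atp6v1f, Atp6v0c and Psap without spermidine replicate 1 (highest adjusted p of the 7 genes from 0.11 to 0.17). With length and GC offsets 0 autophagosome genes fell and Vamp8 rose, and 2 lysosomal genes fell. With total count scaling 0 lysosomal genes fell.

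Nuclear genes of oxidative phosphorylation had fitted values mostly above 0. Of 104 tested 5 rose and none fell, 4.81% against 4.86% of all genes, and the fitted value was above 0 in 89, with a median of 0.33 against -0.03 over all genes. The 4 of smallest p were Ndufb2 (0.89, SE 0.17) and Ndufb10 (0.73, SE 0.16) of complex I, Atp5k (0.81, SE 0.18) of the ATP synthase and Cox6b2 (0.55, SE 0.14) of cytochrome oxidase. Ndufb2 stood at 16.2, 13.5 and 14.8 CPM in aged and 30.5, 31.4, 26.7 and 21.2 CPM in spermidine libraries, and Atp5k at 35.9, 22 and 29 CPM and then at 54.4, 57.9, 45 and 46.1 CPM. In both genes the groups did not overlap. The 5 calls became 0 to 21 with 1 library left out and 22 with DESeq2, and the median was 0.21 after length and GC offsets, with 9 genes higher. The 4 named genes lost their calls without aged replicate 2 or 3 or spermidine replicate 2, Ndufb10, Atp5k and Cox6b2 also without spermidine replicate 3, Atp5k and Cox6b2 without young replicate 3, and Cox6b2 without young replicate 1, aged replicate 1 or spermidine replicate 1 (highest adjusted p 0.08 to 0.14).

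Of 78 genes of the mitochondrial ribosome 3 rose and none fell, 3.85% against 4.86% of all genes (median 0.26). They were Mrps15 (0.65, SE 0.14), Mrpl58 (0.51, SE 0.13) and Mrpl39. The count was 0 to 18 higher with 1 library left out and 17 with DESeq2. Of 39 genes of mitochondrial protein import 0 passed by edgeR (median 0.22). The fission gene Fis1 rose (0.49, SE 0.13) among 21 genes of mitochondrial dynamics, whose median was -0.21. Slc25a36, the mitochondrial carrier of pyrimidine nucleotides, stood at 5.11, 4.09 and 5.43 CPM in aged and 10.02, 14.2, 12.3 and 14.5 CPM in spermidine libraries (1.39, SE 0.24), and lost its call only without aged replicate 2 (adjusted p = 0.0612). The peroxisomal carrier Slc25a17 rose (0.52, SE 0.12) and the glutamate carrier Slc25a22 fell (-1.59, SE 0.37). These 3 carriers were the ones called of 35 in their list, 8.57% against 4.86% of all genes (median -0.09). Mcu, the pore of the mitochondrial calcium uniporter, named after its value was seen, stood at 90.6, 105 and 87.6 CPM and then at 39.8, 35.2, 42.2 and 58.4 CPM (-1.1, SE 0.17, aged minus young 0.27) and held in every leave-one-out fit. Mrps15, Mrpl58, Fis1, Slc25a17 and Slc25a22 were lost without young replicate 1, aged replicate 2 or 3 or spermidine replicate 2 or 3, and all but Mrps15 without young replicate 3. Mrps15, Mrpl58 and Fis1 were also lost without aged replicate 1, and Mrpl58, Fis1 and Slc25a22 without young replicate 2 or spermidine replicate 1 (highest adjusted p of the 5 genes from 0.088 to 0.15).

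In central metabolism the pyruvate carrier subunit Mpc2 rose (0.50, SE 0.13) and the kinase Pdk2, which switches off pyruvate dehydrogenase, fell (-1.59, SE 0.42) of 29 genes of the citric acid cycle and pyruvate entry. That is 6.90% against 4.86% of all genes, and the median was 0.03. Hadha, of the trifunctional protein of fatty acid oxidation, fell (-0.62, SE 0.15), while the median of the 17 genes of that pathway was 0.43. It was the 1 of the 17 that passed (5.88%). Fasn, fatty acid synthase, fell from 34.3, 55.8 and 34.5 CPM to 17.8, 14.9, 20.4 and 26.8 CPM (-1.06, SE 0.26). Of 17 genes of glycolysis 0 passed by edgeR (median -0.11). The calls of Mpc2, Pdk2, Hadha and Fasn were each lost without young replicate 1 or 3, aged replicate 2 or 3, or spermidine replicate 1, 2 or 3, those of Mpc2, Pdk2 and Hadha also without young replicate 2, and that of Mpc2 without aged replicate 1 (highest adjusted p 0.13 to 0.15).

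In defence against oxidants, Gstk1, a mitochondrial and peroxisomal glutathione transferase, stood at 4.17, 2.96 and 4.37 CPM in aged and 9.81, 9.75, 14.4 and 13.7 CPM in spermidine libraries (1.63, SE 0.21, edgeR adjusted p = 0.00285). All 4 spermidine libraries were above all aged ones, and the call held in every leave-one-out fit. It was the 1 of 32 glutathione transferases and aldehyde dehydrogenases that passed (median 0.36). Nfe2l2, the NRF2 factor that drives antioxidant genes, was the 1 of 26 antioxidant genes that passed (0.82, SE 0.21, edgeR adjusted p = 0.0467). It stood at 3.07, 4.06 and 3.01 CPM and then at 5.23, 5.87, 6.84 and 5.87 CPM, and lost its call without any 1 of the libraries except spermidine replicate 4 (highest adjusted p 0.13). Of 29 chaperone and stress genes of the endoplasmic reticulum Ern1 alone changed (median 0.00).

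Of 70 phospholipid and glycerolipid enzymes Gpat3, Plpp1 and Plpp4 (1.64, SE 0.40) rose, and Pnpla2 and Lpin2 fell (median -0.19). That is 7.14% against 4.86% of all genes, and Lpin2 was named after its value was seen. Pnpla2, the lipase that opens the breakdown of stored triglyceride, stood at 7.01, 7.50 and 8.62 CPM in aged and 3.37, 2.07, 3.04 and 4.26 CPM in spermidine libraries (-1.28, SE 0.22, edgeR adjusted p = 0.0121). Gpat3 was higher and Pnpla2 lower in all 4 spermidine libraries than in any aged library, and both held in every leave-one-out fit. Whether triglyceride changed was not tested. Plpp4, at under 1 CPM, lost its call without any 1 of the libraries except spermidine replicate 4 (highest adjusted p 0.14). Sptlc3, a subunit of serine palmitoyltransferase named after its value was seen, rose from 3.60, 3.64 and 3.82 CPM to 10.7, 10.2, 8.87 and 6.29 CPM (1.29, SE 0.20) and held as well. Of 26 genes of sterol synthesis 0 passed by edgeR (median -0.11).

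In membrane traffic, 3 of 82 SNARE and Rab genes rose and 2 fell, 6.10% against 4.86% of all genes (median -0.02). Rab27a, which brings secretory granules to the membrane, stood at 10.5, 10.9 and 11.1 CPM in aged and 17.3, 19.5, 17.7 and 19.7 CPM in spermidine libraries (0.77, SE 0.14), with the values of each group close together. It was also the 1 of 18 genes of the zona, sperm binding and cortical granules that passed, and its call was lost without aged replicate 2 or 3 or spermidine replicate 2 (highest adjusted p 0.069). Its paralog Rab27b, at under 1 CPM, rose by 2.77 (SE 0.61), and Rab36 fell (-1.26, SE 0.32). Snapin, a SNARE-associated protein of lysosome transport named after its value was seen, stood at 2.54, 4.09 and 2.53 CPM and then at 10.3, 11.9, 13.2 and 12.3 CPM (1.97, SE 0.21, edgeR adjusted p = 0.0013) and held in every leave-one-out fit. The calls of Rab27b and Rab36 were lost without young replicate 3, aged replicate 1, 2 or 3, or spermidine replicate 2 or 3, and that of Rab36 without young replicate 1 or spermidine replicate 1 too (highest adjusted p 0.09 and 0.13).

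Of 103 genes of tubulins, dyneins, kinesins and their modifying enzymes 5 fell and none rose, 4.85% against 4.86% of all genes (median -0.17). With DESeq2, with a filter of 10 CPM in 3 libraries and without spermidine replicate 4, 1 gene of the list was called higher. Ttll10, a tubulin glycine ligase, stood at 3.07, 4.85 and 4.04 CPM in aged and 0.842, 0.725, 0.931 and 0.805 CPM in spermidine libraries (-2.26, SE 0.24, edgeR adjusted p = 0.0013). Agbl2, a carboxypeptidase of tubulin tails, stood at 9.14, 8.68 and 7.30 CPM and then at 3.37, 3.59, 3.44 and 3.22 CPM (-1.3, SE 0.16, edgeR adjusted p = 0.00211, aged minus young -0.12). Both held in every leave-one-out fit, with all spermidine libraries below all aged ones. Kif23, the kinesin of the central spindle, stood at 404, 487 and 414 CPM and then at 233, 222, 289 and 288 CPM (-0.75, SE 0.14), and the glutamate ligase Ttll5 changed by -1.01 (SE 0.20). Agbl5, named after its value was seen, was the fifth. Kif23 lost its call without aged replicate 2 or spermidine replicate 2 and Ttll5 without spermidine replicate 2 or 3 (highest adjusted p 0.079 and 0.08).

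Of 43 spindle and kinetochore genes the checkpoint kinase Ttk alone changed (-0.55, SE 0.14, median -0.21), and its call was lost without any 1 of the libraries except spermidine replicate 4 (highest adjusted p 0.15). In actin, Tpm4, a tropomyosin, stood at 1.97, 2.31 and 1.54 CPM in aged and 4.72, 4.39, 5.35 and 4.83 CPM in spermidine libraries (1.31, SE 0.23), and lost its call only without aged replicate 3 (adjusted p = 0.051). Cap1 also rose (1.52, SE 0.33), and Cfl1 and the mitochondrial myosin Myo19 (-0.72, SE 0.18) fell, of 74 genes. That is 5.41% against 4.86% of all genes. Cap1 lost its call without young replicate 1, aged replicate 2 or 3 or spermidine replicate 3, and Myo19 without any 1 of the libraries except spermidine replicate 4 (highest adjusted p 0.1 and 0.13). S100a16, a calcium-binding protein, rose from 0.701, 0.569 and 0.624 CPM to 1.80, 1.99, 5.06 and 2.84 CPM (2.19, SE 0.38). With Anxa5 it made 2 of 12 annexin and S100 genes that rose, none falling, 16.7% against 4.86% of all genes. S100a16 lost its call without aged replicate 2 (adjusted p = 0.0565).

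Among cell junction genes Gjb2, the gap junction protein connexin 26, stood at 2.80, 3.07 and 3.56 CPM in aged and 1.08, 1.05, 0.972 and 1.15 CPM in spermidine libraries (-1.56, SE 0.24, edgeR adjusted p = 0.00829) and held in every leave-one-out fit. Cdh3, P-cadherin, fell (-1.01, SE 0.22), and Cldn34b2 and Cldn10 (0.99, SE 0.25) rose, of 71 genes with a median of 0.15. With Gjb2 that is 5.63% against 4.86% of all genes. Cdh3 lost its call without aged replicate 2 or 3 or spermidine replicate 2 or 3, and Cldn10 without any 1 of the libraries except spermidine replicate 4 (highest adjusted p 0.11 and 0.14).

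Among 88 genes of interferon response, TRIM and NLRP families 6 rose and 5 fell, 12.5% against 4.86% of all genes, with a median of -0.14. With 1 library left out 1 to 6 genes of the list were higher and 1 to 8 lower, and 1 and 1 were left without aged replicate 2 or spermidine replicate 2. Ifi30, a thiol reductase of lysosomes, stood at 8.61, 8.15 and 7.67 CPM in aged and 16.6, 15.8, 15.1 and 16.7 CPM in spermidine libraries (0.98, SE 0.15, edgeR adjusted p = 0.00729). Ifit1bl1, of an interferon-induced family, stood at 5.44, 6.22 and 6.83 CPM and then at 1.77, 2.79, 2.92 and 2.84 CPM (-1.26, SE 0.22, edgeR adjusted p = 0.0121). These 2 went in opposite directions, with groups apart, and both held in every leave-one-out fit. Ifi30 had no known transcript length and was not in the fit with length and GC offsets. Trim31 (1.16, SE 0.24) and Ifitm6 (0.67, SE 0.14) rose, Ifitm6 from 81.2 to 99.3 CPM in aged to 119 to 157 CPM in spermidine libraries. Both lost their calls without aged replicate 2 or 3 or spermidine replicate 2, and Ifitm6 without spermidine replicate 3 too (highest adjusted p 0.077 and 0.098). The list was named by gene families, and its members share sequence with paralogs.

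Among chromatin genes, 3 of 41 of DNA and histone methylation fell and none rose, 7.32% against 4.86% of all genes (median -0.25). They were Kdm4a (-1.12, SE 0.18), Zfp57 and Dnmt1. Transcripts of this list were long (median 4139 bases, against 2124 over all tested genes). Its median log2 fold change was -0.10 with length and GC offsets. With 1 library left out it ran from -0.37 to -0.02, the latter without aged replicate 1. Kdm4a, a histone demethylase, stood at 8.81, 7.28 and 6.75 CPM in aged and 3.46, 4.13, 3.00 and 3.41 CPM in spermidine libraries and held in every leave-one-out fit. The acetyltransferases Naa40 (-0.78, SE 0.15) and Kat7 (-0.63, SE 0.15) fell, of 30 genes of histone acetylation and sirtuins (6.67%). Of 323 genes with Zfp symbols 5 rose and 10 fell, 4.64% together (median -0.08). Zfp961, Zfp979 and Zfp750 had the smallest p of those that fell and Zfp820 (1.43, SE 0.27) of those that rose. Naa40 lost its call without aged replicate 2 or spermidine replicate 2 or 3, Kat7 without young replicate 1 or 3, aged replicate 1 or 2 or spermidine replicate 2 or 3, and Zfp820 without aged replicate 2 or 3 or spermidine replicate 2 (highest adjusted p 0.068, 0.12 and 0.075).

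Of 114 splicing factors 2 rose and 3 fell, 4.39% against 4.86% of all genes. Sf3b4, of the U2 particle, stood at 7.77, 9.93 and 11.8 CPM in aged and 3.22, 3.26, 3.56 and 5.60 CPM in spermidine libraries (-1.33, SE 0.22, edgeR adjusted p = 0.0111), and held in every leave-one-out fit. Rbm47 rose (1.66, SE 0.30) and lost its call without aged replicate 2, and Rbm25 (-0.50, SE 0.11) and Lsm7 (0.70, SE 0.16) lost theirs without young replicate 1 or 3, aged replicate 2 or 3 or spermidine replicate 2 or 3. Rbm25 did so without aged replicate 1 too and Lsm7 without young replicate 2 or spermidine replicate 1 (highest adjusted p 0.07, 0.095 and 0.13). Of 95 genes of Mediator and RNA polymerase II 1 rose and 4 fell, 5.26% against 4.86% of all genes. The general factor Gtf2a1l of germ cells rose (0.77, SE 0.19). Among those that fell were Taf3 (-0.74, SE 0.16), Med15 (-0.78, SE 0.19) and Ccnt2 (-0.67, SE 0.17). None of these 4 named genes held without aged replicate 2 or 3 or spermidine replicate 2 or 3. Gtf2a1l, Med15 and Ccnt2 were lost without any young library or aged replicate 1 as well, and Ccnt2 without spermidine replicate 4 (highest adjusted p 0.095 to 0.15).

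In protein turnover Uchl3, a ubiquitin hydrolase, stood at 73.8, 74.9 and 77.7 CPM in aged and 134, 153, 120 and 127 CPM in spermidine libraries (0.82, SE 0.13, edgeR adjusted p = 0.00879), and held in every leave-one-out fit. Of 91 genes of ubiquitin conjugation and removal 2 rose and 3 fell, 5.49% against 4.86% of all genes. Ube2v2 (0.53, SE 0.14) was up and Usp37 (-0.72, SE 0.14) and Usp3 (-0.54, SE 0.13) were down. The assembly chaperone Psmg1 was the 1 of 49 proteasome genes that changed (0.54, SE 0.14). Heat shock genes Dnajc7 (-0.59, SE 0.15) and Hspa4 (-0.50, SE 0.13) fell, of 55, which is 3.64% against 4.86% of all genes. The calls of Ube2v2, Psmg1, Dnajc7 and Hspa4 were lost without any 1 of the libraries except spermidine replicate 4. Usp37 was lost without aged replicate 2 or spermidine replicate 2 or 3, and Usp3 without young replicate 1 or 3, aged replicate 2 or 3 or any of spermidine replicates 1 to 3 (highest adjusted p of the 6 genes from 0.077 to 0.16).

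Against 4.86% of all genes, 6.52% of the genes of nutrient signalling, 14.3% of the Wnt genes and 13.3% of the clock genes were called, which is 3, 4 and 2 genes. In the nutrient pathways of mTOR, AMPK and insulin, Rictor, the defining subunit of mTOR complex 2, stood at 79.6, 76.4 and 65.0 CPM in aged and 36.7, 32.1, 40.9 and 51.1 CPM in spermidine libraries (-0.87, SE 0.17). It lost its call without aged replicate 2 (adjusted p = 0.0709) or spermidine replicate 2 (adjusted p = 0.0654) and with length and GC offsets. The AMPK subunits Prkaa2 (0.54, SE 0.14) and Prkag2 (1.80, SE 0.45, under 1 CPM) rose, of 46 genes with a median of -0.12. Of 28 Wnt genes Znrf3 (0.72, SE 0.17), which removes Wnt receptors, rose, and Tcf7 (-0.86, SE 0.15), Lef1 (-0.72, SE 0.14) and Csnk1a1 fell (median -0.31). Tcf7 and Lef1 are the nuclear partners of beta-catenin, and Tcf7 stood at 21.8, 19.6 and 18.7 CPM and then at 11.4, 9.72, 13.1 and 9.90 CPM, losing its call without spermidine replicate 2 alone (adjusted p = 0.0547). Prkaa2, Prkag2 and Znrf3 were lost without young replicate 1 or 3, and with Lef1 also without aged replicate 2 or 3 or spermidine replicate 2 or 3. Prkaa2 and Prkag2 were lost without aged replicate 1 or spermidine replicate 4, Prkaa2 and Znrf3 without young replicate 2, and Prkag2 without spermidine replicate 1 (highest adjusted p of the 4 genes from 0.08 to 0.14).

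In Notch signalling the ligand Jag1 (-0.65, SE 0.16) and the receptor-cleaving protease Adam17 (-0.65, SE 0.16) fell. Jag1 stood at 306, 228 and 228 CPM in aged and 194, 164, 157 and 133 CPM in spermidine libraries. Of 15 clock genes Per3 and Npas2 fell (median -0.28), Per3 from 52.8, 43.9 and 38.0 CPM to 32.2, 26.4, 17.7 and 21.5 CPM (-0.88, SE 0.20). Per3 stood at a mean of 10.1 CPM in young libraries, and its aged minus young value was 2.15. Npas2 changed by -0.91 (SE 0.21). The calls of Jag1, Adam17, Per3 and Npas2 were lost without aged replicate 2 or 3 or spermidine replicate 2 or 3, all but Per3 also without young replicate 1 or 3, Jag1 and Adam17 without aged replicate 1, Adam17 without young replicate 2, and Npas2 without spermidine replicate 1 (highest adjusted p 0.092 to 0.12).

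Of 193 solute carriers outside mitochondria 5 fell and 1 rose, 3.11% against 4.86% of all genes (median -0.15). Slc38a7, a lysosomal exporter of glutamine, stood at 4.84, 4.81 and 5.76 CPM in aged and 2.20, 0.834, 1.58 and 2.3 CPM in spermidine libraries (-1.57, SE 0.29), and lost its call without aged replicate 3 (adjusted p = 0.051). The bicarbonate exchanger Slc4a3 (-1.80, SE 0.36), Slc43a3 (-0.62, SE 0.14), a nucleobase transporter, and the choline transporter Slc44a2 (-0.64, SE 0.15) fell too. Slc4a3 was lost without aged replicate 2 or 3, Slc43a3 and Slc44a2 also without young replicate 3 or spermidine replicate 2 or 3, Slc43a3 without spermidine replicate 1, and Slc44a2 without young replicate 1 or 2 or aged replicate 1 (highest adjusted p 0.083 to 0.12). By edgeR 0 genes passed in the lists of DNA damage (of 38), apoptosis (of 20), cohesin and meiotic chromosomes (of 30) and histones (of 22).

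The remaining lists had 8.70% of 23 transposon control genes, 3.70% of 27 nuclear receptors and 5.56% of 36 meiotic arrest genes called. The shares were 2.74% of 73 G protein and receptor genes and 2.74% of 73 calcium and phosphoinositide genes. They were 5.66% of 53 nuclear pore genes and 1.45% of 69 ion channels, against 4.86% of all genes. Mov10, a helicase of transposon control, fell (-0.99, SE 0.22), as did the nuclear receptor Nr2e1 (-0.72, SE 0.15), the sphingosine receptor S1pr3 (-0.84, SE 0.20) and Prkaca, the catalytic subunit of protein kinase A (-0.66, SE 0.17). Camk2g, the calcium-dependent kinase that acts at egg activation, stood at 97.5, 136 and 119 CPM in aged and 74.3, 63.2, 77.9 and 90.6 CPM in spermidine libraries (-0.62, SE 0.15), and the lipid phosphatase Inpp5d changed by -1.13 (SE 0.29). The importin Tnpo2 fell (-0.92, SE 0.19), the nucleoporin Nup133 rose (0.51, SE 0.13) and the potassium channel Kcnk18 rose (2.51, SE 0.62). These 9 calls were lost without spermidine replicate 2, all but Kcnk18 without aged replicate 2, all but Inpp5d without aged replicate 3, all but Nr2e1 without spermidine replicate 3, and all but Tnpo2 without young replicate 1 or 3. Camk2g, Inpp5d, Nup133, Prkaca and Kcnk18 were lost without young replicate 2, the last 4 of these without aged replicate 1, S1pr3, Camk2g, Nup133, Prkaca and Mov10 without spermidine replicate 1, and Inpp5d and Nup133 without spermidine replicate 4 (highest adjusted p 0.086 to 0.15).

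**Figure D5:**
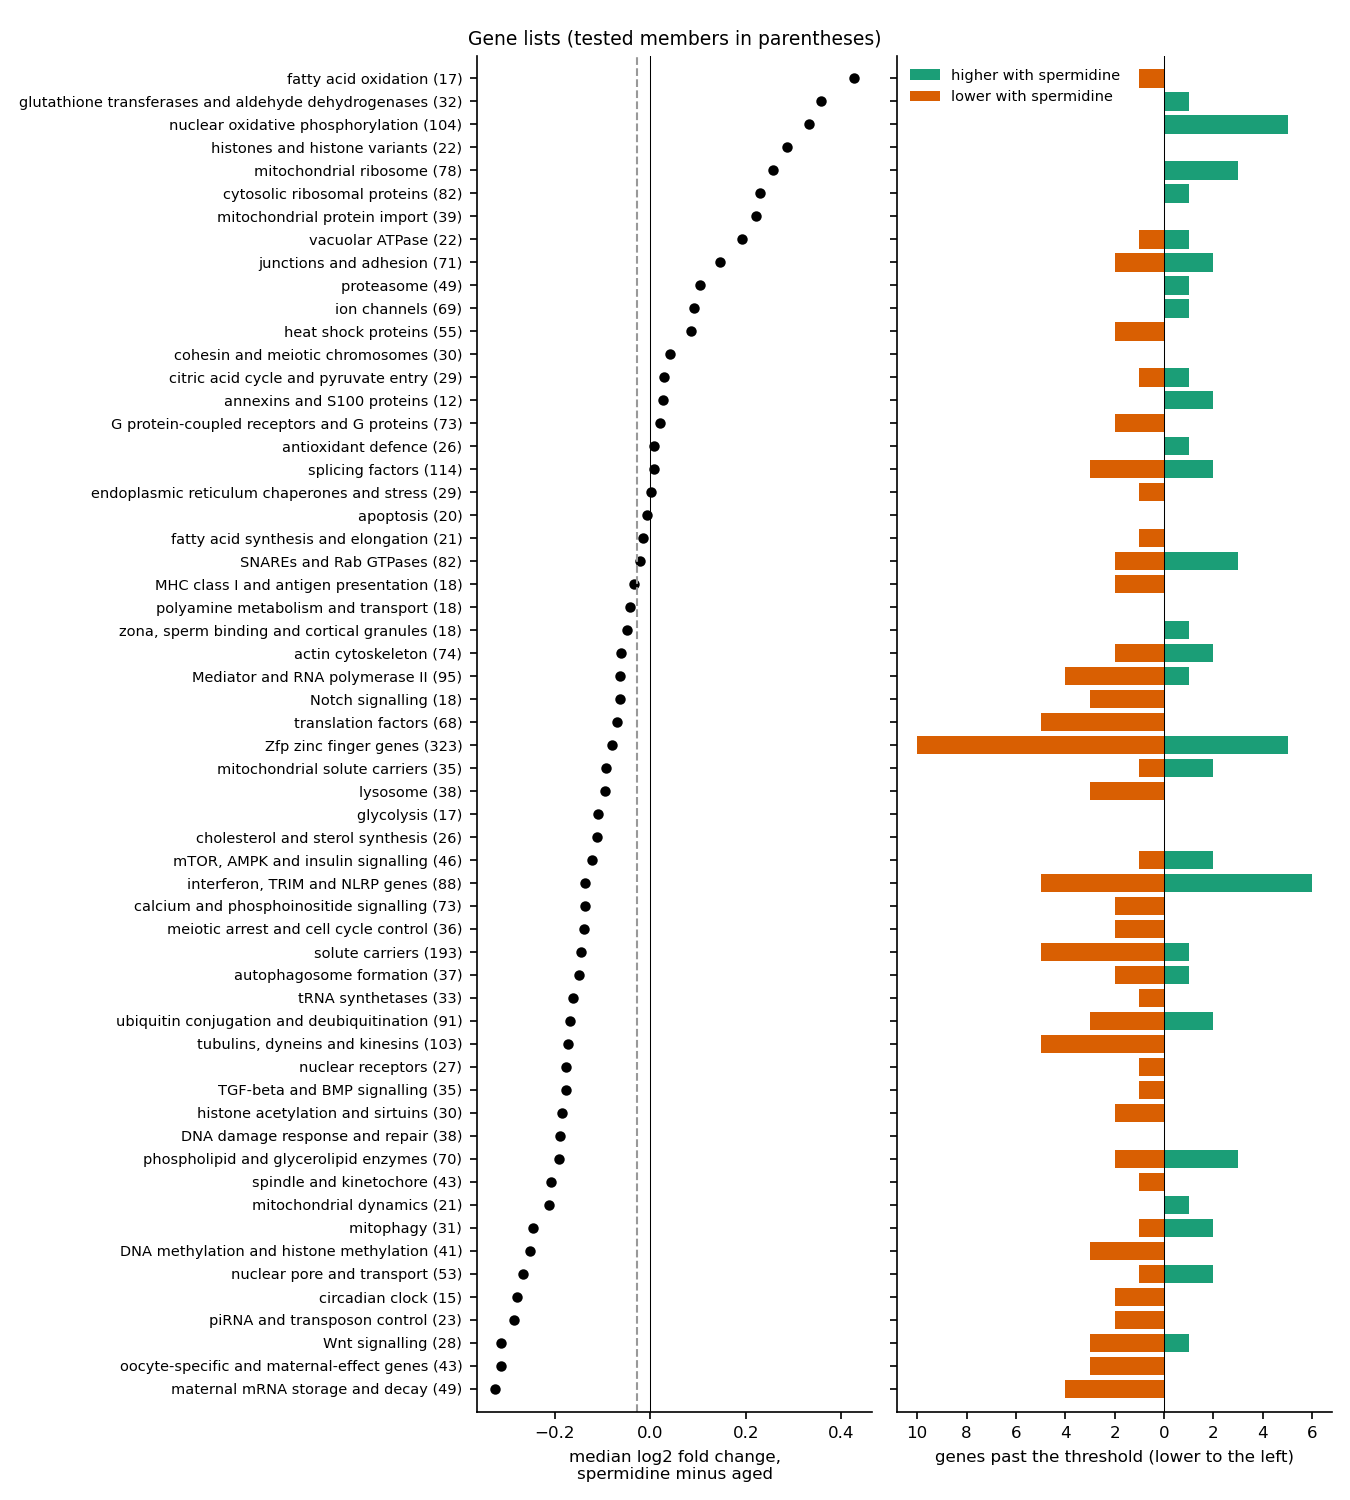
Left, median log2 fold change, spermidine minus aged, of each list with at least 10 tested genes, cell marker lists left out (solid line at 0, dashed line at the median of all genes, -0.03). Right, the number of its genes that rose (right of 0) or fell (left of 0), with the number tested in parentheses. Medians run from -0.33 for maternal mRNA storage to 0.43 for fatty acid oxidation, and most lists have 5 calls or fewer.

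The genes below are among the 71 that held in every leave-one-out fit and were named after their values were seen. Xdh, xanthine dehydrogenase, which makes uric acid, stood at 15.5, 10.3 and 8.18 CPM in aged and 1.35, 0.761, 3.16 and 0.767 CPM in spermidine libraries (-2.92, SE 0.41). Stk36, a kinase of motile cilia and Hedgehog signalling, stood at 10.01, 10.3 and 8.0 CPM and then at 2.53, 1.23, 1.46 and 1.96 CPM (-2.39, SE 0.23, edgeR adjusted p = 0.0013). The calmodulin regulator Pcp4l1 stood at 8.88, 7.88 and 6.27 CPM and then at 0.331, 0.616, 0.324 and 0.230 CPM (-4.33, SE 0.43). In all 3 every spermidine library lay far below every aged one.

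Cd200, a ligand that restrains myeloid cells, stood at 3.30, 3.52 and 7.27 CPM in aged and 13.3, 18.6, 19.8 and 27.5 CPM in spermidine libraries (2.08, SE 0.32, aged minus young -3.19). Cd200r3, of its receptor family, stood at 2.80, 1.71 and 1.28 CPM and then at 0.0301, 0.109, 0.121 and 0 CPM. The inhibitory receptor Btla rose from 7.64, 3.68 and 6.46 CPM to 15.7, 13.3, 12.4 and 17.0 CPM (1.3, SE 0.23), and Icosl, the ligand of ICOS, fell from 12.4, 12.3 and 10.8 CPM to 3.88, 4.13, 4.33 and 5.60 CPM (-1.40, SE 0.17). Btn1a1, a butyrophilin, fell by 1.84 on the log2 scale (SE 0.31). In the same libraries the immune marker sums were 0.682 to 3.5 CPM in aged and 0.850 to 1.34 CPM in spermidine libraries, and their part in these values was not tested.

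Nsmce1, a ubiquitin ligase of the SMC5/6 repair complex, rose from 140, 149 and 154 CPM in aged to 262, 294, 272 and 247 CPM in spermidine libraries (0.87, SE 0.11, edgeR adjusted p = 0.0029). Mapkapk2, a kinase downstream of p38, stood at 2.40, 3.83 and 2.17 CPM and then at 8.27, 9.43, 9.88 and 6.56 CPM (1.61, SE 0.24), with an aged minus young value of 0.04. Dppa2, a factor that opens genes of the early embryo, stood at 180, 189 and 165 CPM and then at 84.6, 95.2, 108 and 106 CPM (-0.86, SE 0.14). The homeobox gene Otx1 fell (-1.41, SE 0.21), as did the chromatin remodeller Srcap (-1.46, SE 0.23). Tmbim4, of a family of membrane proteins that restrain cell death, rose (0.92, SE 0.15), and so did the nucleoside diphosphate kinase Nme1 (1.15, SE 0.20) and the phosphatase regulator Ppp6r2 (1.1, SE 0.17). Prr18 had 0 counts in the 3 aged libraries and stood at 2.20, 1.23, 1.5 and 0.345 CPM with spermidine, and Vipr2, a peptide receptor, stood at 0.734, 0.644 and 0.514 CPM and then at 0.0301 to 0.0767 CPM.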

How the data were processed

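RNA sequencing was done on 10 oocyte libraries, grouped by title. The submitters' processing notes list RSEM 1.3.1, Bowtie2 2.3.4.3, DESeq2 1.4.5 and, as genome build, mm9, without saying what each did. The authors deposited 1 table with an expected count for each gene and library. The file headers call it a read count, but 15.9% to 16.7% of values were fractional in the 7 libraries compared. The deposited log2 fold changes and the deposited p-values and q-values of the authors were not used. Use of strand in the counting is not given in the sources used here. Reads of genes that overlap, antisense pairs included, may therefore be shared.

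Expected counts were rounded. Genes were filtered with filterByExpr, TMM factors computed and 12315 genes tested in edgeR 4.0.16 (R 4.3.3) by a robust quasi-likelihood fit. The model had 1 mean for each group of the 10 libraries, so that the young libraries share in the estimate of spread. P-values were adjusted by Benjamini-Hochberg over all genes (threshold 0.05), and SE is the log2 fold change over the root of F. Depth was about the same in all 7 libraries and limits the precision of low genes. For 97.4% of tested genes a GRCm38 annotation gave transcript length and GC. The alternatives, run with edgeR or DESeq2 1.42.0, are given in the closing part. The procedure was tested on simulated data. Plots were made in matplotlib 3.10.9 under Python 3.11.15.

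Named genes are the 15 largest rises and falls at 20 CPM or more with groups apart and no predicted symbol, up to 4 of smallest p per list (66 lists, of which 7 of cell markers), the 10 of smallest p with little difference between aged and young, the 8 most abundant that passed, and oocyte markers. The members and lists were chosen with earlier results of these data known, and the name patterns of 4 lists were corrected after the data were seen, so a list's count is a description and no list test was made. Replicate numbers were not taken to pair libraries. The result of 1 gene named by this rule is not reported here.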

Additional observations from a re-analysis of the deposited data

Results flagged for a closer look

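In the 4 spermidine libraries, a library far from the other 3 by Dixon's test was found for 12 of 213 values examined, where chance flags about 1 in 20. Spermidine replicate 4 was the high one for Atp6v0c (357 CPM, others 178 to 202), Bmp15 (3030 CPM, others 1494 to 1737), Gpr3 (9.05 CPM, others 5.22 to 5.71), Prex2 (45.9 CPM, others 20.7 to 23.2), Sf3b4 (5.60 CPM, others 3.22 to 3.56) and Trim31 (7.33 CPM, others 4.27 to 4.64). It was the low one for the theca and stroma markers, which summed to 1.73 CPM against 2.41 to 2.54 in the others.

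Spermidine replicate 3 was high for Galnt6 (122 CPM, others 52.3 to 59.7). Spermidine replicate 2 was low for Ern1 (15.7 CPM, others 21.0 to 22) and high for Ubxn2b (33.4 CPM, others 29.1 to 29.5). Spermidine replicate 1 was low for Ifit1bl1 (1.77 CPM, others 2.79 to 2.92), and held 0.0602 CPM of Gprc5a, which was at 0 in the other 3. The falls of Ern1, Sf3b4 and Ifit1bl1 held in every fit with 1 library left out.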

How the results depend on the processing

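Of 298 genes higher and 300 lower with spermidine, the number depended on the processing. The direction of each of the 598 genes did not turn under any alternative that tested it. With groups that do not overlap in 591 of them, refits of the same counts could hardly turn a direction. With 1 library left out the count ran from 42 to 537 higher and from 57 to 590 lower. It was 153 higher and 106 lower with total count scaling, 193 higher with no filter on low counts, 193 lower with a filter of 10 CPM in 3 libraries, 653 and 713 with DESeq2, 65 and 59 with only the 7 libraries compared, and 69 and 70 when a change over 1.2-fold was required. The lower count in the last follows from its stricter test, and the cause of the other differences, that of DESeq2 included, was not tested. The number pairing was checked by the correlation of deviations from the group means. It was 0.408, -0.091 and 0.059 for the same-numbered aged and spermidine libraries. The 0.408 of the replicate 1 pair was the highest of all aged and spermidine pairs. Groups this small cannot show whether same-numbered libraries belong together, and the numbers were not used to pair them. A replicate block gave 434 higher and 564 lower, and the block with length and GC offsets 513 higher and 761 lower. RLE factors, no robust fit, length and GC offsets alone and leaving out aged replicate 1 with spermidine replicate 1 stayed within 1.5 times of the counts. Over single genes 3200 alternative values were on the same side of the threshold as before, 1123 had lost the call and 12 had gained it. Depth limits genes under 1 CPM, of which 16 rose and 8 fell.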
